A study of Mus musculus with 8 samples.

Results

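The 8 genes described here mark GABAergic neurons, the inhibitory neurons of the cortex: Gad1, Gad2 and Slc32a1, which make and package GABA, the transcription factors Dlx1, Dlx2 and Lhx6, and the calcium-binding proteins Pvalb and Calb2, which mark interneuron subclasses. They were taken by symbol from a table of 17644 genes, and all 8 were found and passed the filter on low values. Expression was measured by CAGE, a method that sequences a short tag at the capped 5' end of each RNA captured, in brain tissue of 11-week-old male C57BL/6NCrSlc mice. A cavity had been made by aspiration in the motor cortex of every animal, and brain tissue up to 1.0 mm from its wall was taken at once (no delay, 4 samples) or 1 week later (1 week, 4 samples). No group was without a lesion, so the no-delay samples are freshly injured tissue and not intact cortex, and the labels name no further treatment or allele in either group. The protocol gives 4 brains for each group, as many as there are samples, but does not state that each sample is 1 brain, so a p-value here reflects only the spread among the samples given. The series title concerns progranulin and the engraftment of human stem cell-derived cerebral neurons, and the comparison addresses how the tissue around such a cavity differs after a delay of 1 week.

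GABA is made from glutamate by glutamate decarboxylase, which exists as the isoforms GAD67 and GAD65, encoded by Gad1 and Gad2, and it is loaded into synaptic vesicles by the transporter VGAT, encoded by Slc32a1. Cortical interneurons are born in the ganglionic eminences, where Dlx1 and Dlx2 specify GABAergic fate and Lhx6 acts downstream in cells of the medial eminence, which become the parvalbumin and somatostatin classes. Parvalbumin, encoded by Pvalb, is the calcium buffer of fast-spiking basket and chandelier cells, and calretinin, encoded by Calb2, marks a different class that often also makes the peptide VIP.

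The libraries held 8278855 to 13998941 reads, recovered from the deposited values, which are in CPM, counts scaled to a common library total. Within each group they are called A to D, in the alphabetical order of the 6-base tags in their column names. The same letter in both groups is a shared tag and not a shared animal. No-delay library B stood apart in holding 103.88 CPM of Ttr, the transthyretin of choroid plexus, against at most 0.2 CPM elsewhere. At 1 week all 7 astrocyte and all 6 microglia markers examined were called higher, and the summed level of 12 general neuron genes ranged from 7232 to 7947 CPM against 8193 to 9098 at no delay. In such bulk tissue, fewer cells of a type and less RNA per cell cannot be told apart. CPM is a share of all tags, so a gain of glial RNA by itself lowers the share of every other gene.

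Of the 8 genes, Pvalb was higher at 1 week, with 94.6 against 53.6 CPM, and Dlx1 was lower, with 8.88 against 11.9 CPM. The other 6 were not called, and the GABA-making and GABA-packaging genes had nearly the same mean in both groups. Over all 14718 genes tested, 23.4% were called higher and 13.4% lower, so 1 of 8 in each direction is close to the background. Calls were made with limma on log2(CPM + 1) at a Benjamini-Hochberg adjusted p under 0.05, and fold changes are 1 week over no delay. The median log2 fold change of the 8 genes was -0.04, beside 0.06 over all genes tested. Of the 8, 7 lay below 0, but Gad1, Gad2, Slc32a1 and Dlx2 did so only slightly (-0.04, -0.04, -0.02 and -0.004). Their summed level was 445 ± 23.1 CPM (SD, n = 4) at no delay and 470 ± 25.03 CPM (SD, n = 4) at 1 week.

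**Figure D1:**
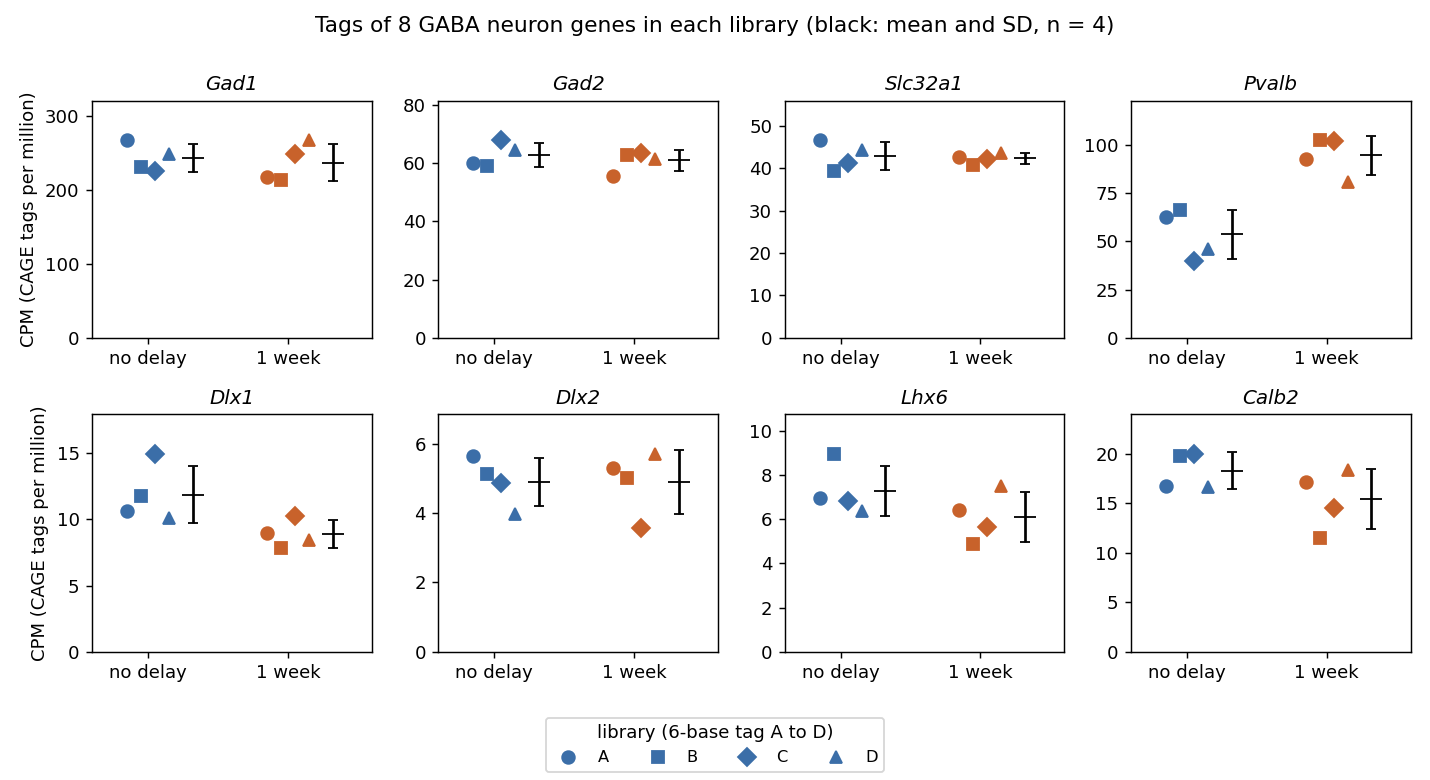
CPM of each of the 8 genes (vertical axis, from 0) in the no-delay (blue) and 1-week (orange) libraries, with 1 symbol per library A to D and the mean and SD of 4 libraries in black. The Pvalb symbols of the groups do not overlap (39.9 to 66.0 CPM against 80.95 to 102.6 CPM), while those of the other 7 genes do.

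CAGE tags come from transcription start sites, so a gene's value sums the tags that the authors assigned to its start or starts. The table gives no tag positions, and which start was used is not known from it. The 150 bases before 4 RefSeq starts (mouse build GRCm38.p6) are shown because they belong to the member that was higher, the member that was lower and the most abundant one. CpG dinucleotides are in capitals. Pvalb has 2 RefSeq starts on the minus strand, with windows at chr15:78206401-78206550 and chr15:78204238-78204387. The windows of Gad1 (chr2:70561979-70562128) and Dlx1 (chr2:71529295-71529444) are on the plus strand.
Pvalb start 1: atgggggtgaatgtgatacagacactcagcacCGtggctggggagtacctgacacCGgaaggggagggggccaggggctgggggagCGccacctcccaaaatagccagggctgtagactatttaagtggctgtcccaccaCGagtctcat
Pvalb start 2: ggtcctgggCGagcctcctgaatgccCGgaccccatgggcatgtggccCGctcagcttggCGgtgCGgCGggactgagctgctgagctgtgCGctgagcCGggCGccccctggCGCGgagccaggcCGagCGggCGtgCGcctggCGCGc
Gad1: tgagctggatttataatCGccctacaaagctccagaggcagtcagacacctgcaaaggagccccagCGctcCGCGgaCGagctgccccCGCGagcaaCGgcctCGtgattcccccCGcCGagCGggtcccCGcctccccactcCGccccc
Dlx1: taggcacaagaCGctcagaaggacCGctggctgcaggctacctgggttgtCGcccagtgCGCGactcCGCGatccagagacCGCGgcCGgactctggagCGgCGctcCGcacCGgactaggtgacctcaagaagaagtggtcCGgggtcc
In the 300 bases from 250 before to 50 after each start, Pvalb start 1 held 5 CpG and start 2 held 25. Gad1 held 21 and Dlx1 held 27, Gad2 14, Slc32a1 17 and Dlx2 29, while the 3 starts of Lhx6 held 16, 17 and 11. The median of 32851 mouse promoters of the same length was 7, and 43.6% of them held 5 or fewer. Among the 10 starts matched for 7 of the genes, Pvalb start 1 therefore had the fewest CpG, and it was the single one below that median. It was also the single member start with the letters TATTTAA in the 150 bases, their first base at position -32 from the start. That motif, sought on both strands, occurs in 2.23% of all promoters. The motif TATAAA, sought likewise, occurs in 7.57% of promoters and in 1 member start, on the reverse strand of Gad1. These are matches of letters only, and Calb2 had no entry in the promoter table.

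The genes of GABA synthesis and packaging were level between the groups. Gad1, the gene of GAD67, gave 267.2, 231.3, 225.3 and 248.8 CPM in no-delay libraries A to D and 217.9, 213.6, 247.8 and 266.6 CPM in 1-week libraries A to D. The groups overlapped, with 1-week libraries A and B below all no-delay values and libraries C and D within their range. The means were 243 ± 18.9 and 236 ± 25.2 CPM (SD, n = 4), and the log2 fold change was -0.04 with a 95% interval from -0.22 to 0.14 (adjusted p = 0.722).

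Gad2, the gene of the vesicle-associated isoform GAD65, gave 60.0, 59.2, 68.0 and 64.5 CPM at no delay and 55.8, 63.0, 63.7 and 61.7 CPM at 1 week. Its ranges overlapped, with 1-week library A the lowest of all 8. The log2 fold change was -0.04, with an interval from -0.20 to 0.11 (adjusted p = 0.671). The ratio of Gad1 to Gad2 tags was 3.88 ± 0.465 (SD, n = 4) at no delay and 3.88 ± 0.383 (SD, n = 4) at 1 week. Its mean was thus level between the groups, and the ratio was not tested.

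Slc32a1, the vesicular GABA transporter, gave 46.7, 39.5, 41.2 and 44.4 CPM at no delay and 42.8, 40.8, 42.3 and 43.7 CPM at 1 week. Every 1-week value lay within the no-delay range. Its log2 fold change was -0.02, from -0.17 to 0.14 (adjusted p = 0.884). At 1 week its 4 libraries differed by an SD of 2.89% of their mean, less than the 4.53% that counting error alone gives at this depth. For these 3 genes the intervals exclude a change of the size seen for Pvalb, and they do not show that the levels were equal.

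The transcription factors were measured from fewer tags. Dlx1, which with Dlx2 directs progenitors to a GABAergic fate and is needed later for the survival of some interneurons, gave 10.65, 11.8, 14.95 and 10.1 CPM at no delay and 8.94, 7.83, 10.3 and 8.47 CPM at 1 week. Libraries A, B and D of the 1-week group were below all no-delay values, and library C lay within their range. Dlx1 fell by 0.37 on the log2(CPM + 1) scale (SE 0.13, interval from -0.66 to -0.08, adjusted p = 0.0435 with limma). Its call was lost in 7 of 20 alternative analyses, and over all 20 the adjusted p ranged from 0.00169 to 0.192. Without no-delay library C, the highest, the log2 fold change was -0.27 (adjusted p = 0.126). The call was also lost without no-delay library B (adjusted p = 0.0834) and without 1-week library A, B or D (0.0748, 0.120 and 0.0778). With no filter on low values the adjusted p was 0.0639, and with libraries scaled to the general neuron genes the log2 fold change was -0.22 (adjusted p = 0.192).

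Dlx1 lies beside Dlx2 and overlaps the antisense gene Dlx1as, and the use of strand in the authors' counting is not given in the sources used here, so how reads from the overlap were divided between Dlx1 and Dlx1as is not known. Gad1 and Slc32a1 likewise overlap antisense genes, Gad1os and Gm14205. As counted by the authors, Dlx1as had the higher values of the pair, with 33.8, 40.05, 47.9 and 45.95 CPM at no delay and 38.2, 31.2, 33.9 and 38.8 CPM at 1 week. Its groups overlapped and it was not called (log2 fold change -0.23, adjusted p = 0.132). As counted, tags of Dlx1as per tag of Dlx1 numbered 3.58 ± 0.651 (SD, n = 4) at no delay and 4.03 ± 0.549 (SD, n = 4) at 1 week, which is a difference within the spread. Dlx1as was added after its values were seen, as was Dlx6os1, the noncoding RNA of the other Dlx pair, with 22.8 ± 3.85 and 19.5 ± 1.05 CPM (SD, n = 4; adjusted p = 0.192).

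Dlx2, the partner of Dlx1, gave 5.63, 5.12, 4.85 and 3.96 CPM at no delay and 5.31, 5.02, 3.57 and 5.70 CPM at 1 week. The means were 4.89 ± 0.699 and 4.90 ± 0.929 CPM (SD, n = 4), and the interval of the log2 fold change ran from -0.33 to 0.32 (adjusted p = 0.985). Dlx2 had only 38 to 70 reads per library, and counting error alone gives 14.2% of the mean at no delay, where the SD was 14.3%. The lower bound of its interval, -0.33, lies close to the estimate of -0.37 for Dlx1, the intervals of both genes overlap, and the difference between the genes was not tested.

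Lhx6, the factor of interneurons from the medial eminence, gave 6.97, 8.96, 6.83 and 6.36 CPM at no delay and 6.40, 4.88, 5.64 and 7.49 CPM at 1 week. Its highest value was in no-delay library B, the library with Ttr. The log2 fold change was -0.22, from -0.54 to 0.09 (adjusted p = 0.246), and -0.13 without that library. Quantile normalization gave it a log2 fold change of -0.56 with an adjusted p of 0.00978, the single alternative in which it was called.

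Of the calcium-binding proteins, Pvalb was called higher and Calb2 was not called. Pvalb, parvalbumin, gave 62.5, 66.0, 39.9 and 45.8 CPM at no delay and 92.8, 102.6, 102.0 and 80.95 CPM at 1 week. Every 1-week library was above every no-delay library, as for 22.7% of all genes tested. At no delay the libraries fell into a higher pair, A and B, and a lower pair, C and D, and their SD was 23.6% of the mean against 4.29% from counting error. The 1-week mean was 1.77 times the no-delay mean (94.6 ± 10.1 against 53.6 ± 12.7 CPM, SD, n = 4). The log2 fold change was 0.83 (SE 0.14, interval from 0.52 to 1.14, adjusted p = 6.8e-04), and by p it ranked 1659 among the genes tested. The call was kept in all 20 alternatives, with log2 fold changes from 0.70 to 1.00. The value was 0.70 without no-delay library C and 0.94 without no-delay library B.

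Calb2, calretinin, gave 16.8, 19.8, 20 and 16.7 CPM at no delay and 17.2, 11.5, 14.6 and 18.4 CPM at 1 week. Libraries B and C of the 1-week group were below all no-delay values and A and D were within their range. The log2 fold change was -0.25, from -0.54 to 0.04 (adjusted p = 0.168), and it was called in 1 alternative, quantile normalization (-0.43, adjusted p = 0.0321). No member had every 1-week library below every no-delay library, as 12.0% of all genes tested did.

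**Figure D2:**
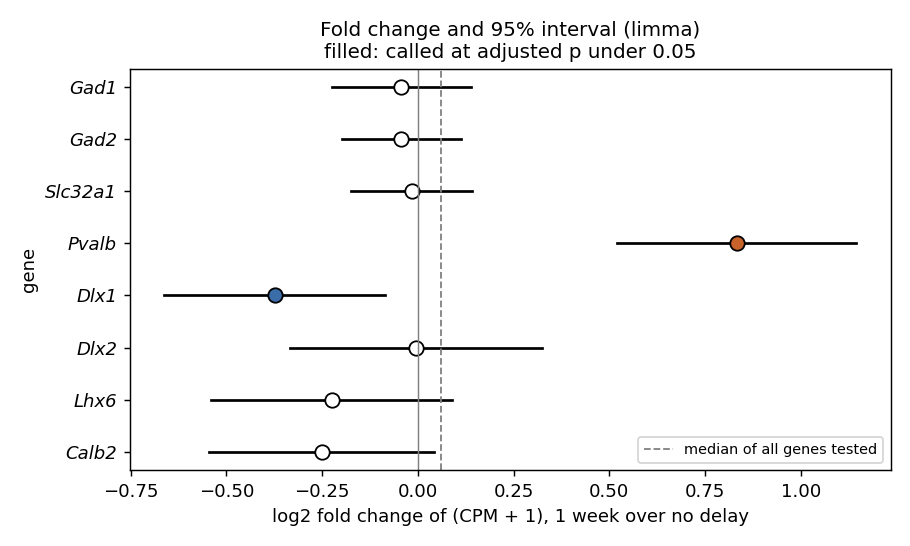
Log2 fold change of (CPM + 1), 1 week over no delay (horizontal axis), with its 95% interval from limma for each of the 8 genes (rows); filled points were called, and the dashed line is the median of all genes tested, 0.06. The interval of Pvalb lies between 0.52 and 1.14 and that of Dlx1 between -0.66 and -0.08, while those of the other 6 genes include 0.

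The order of the levels changed at 1 place. CAGE gives 1 tag per capped end and not per unit of length, so CPM needs no correction for gene length. How tags were assigned to genes is not known, so the ranks describe the values as counted. At no delay the means ranked Gad1, Gad2, Pvalb, Slc32a1, Calb2, Dlx1, Lhx6 and Dlx2, with overlap of library values between Gad2 and Pvalb and between Pvalb and Slc32a1. At 1 week Pvalb stood second, above Gad2 in 4 of 4 libraries, and only the neighbours Lhx6 and Dlx2 overlapped. The members did not share 1 ordering of libraries. In the 1-week group, library D was the highest for Gad1, Slc32a1, Dlx2, Lhx6 and Calb2 and the lowest for Pvalb, whereas library B was the highest for Pvalb and the lowest for Gad1, Slc32a1, Dlx1, Lhx6 and Calb2. These extremes describe 4 libraries, and no correlation was tested.

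Ratios to neuronal genes describe the members apart from the gain in glial RNA. Slc17a7, the vesicular glutamate transporter VGLUT1 of cortical excitatory neurons, was not called (560 ± 28.5 against 523 ± 62.6 CPM, SD, n = 4, adjusted p = 0.373). Per 100 Slc17a7 tags, Gad1 gave 43.4 ± 2.15 at no delay and 45.5 ± 5.66 at 1 week (SD, n = 4), and Gad2 gave 11.3 ± 1.26 and 11.8 ± 2.00 (SD, n = 4). These ratios of Gad1 and Gad2 thus differed by less than the spread between libraries. Slc32a1 per 100 Slc17a7 tags was 7.67 ± 0.486 and 8.17 ± 0.796 (SD, n = 4), with overlap between the groups. Pvalb per 100 Slc17a7 tags was 9.51 ± 1.91 and 18.4 ± 3.97 (SD, n = 4), with no overlap between the groups, and Dlx1 was 2.13 ± 0.470 and 1.71 ± 0.262 (SD, n = 4), with overlap. Per Gad1 tag, Pvalb gave 0.220 ± 0.0503 and 0.405 ± 0.0739 (SD, n = 4), in ranges of 0.177 to 0.285 and 0.304 to 0.480. Per 1000 tags of the general neuron genes, Pvalb gave 6.18 ± 1.28 and 12.3 ± 0.804 (SD, n = 4) and Slc32a1 gave 4.98 ± 0.384 and 5.53 ± 0.393 (SD, n = 4). On that scale Gad1 gave 28.2 ± 1.99 and 30.9 ± 4.35 and Gad2 gave 7.31 ± 0.726 and 7.95 ± 0.498 (SD, n = 4). No test was made on the ratios, and that of Pvalb to Gad1, like that of Dlx1as to Dlx1, was chosen after the values were seen. Scaling all libraries to the general neuron genes moved the median of all genes to 0.217 and turned the fold changes of Gad1, Gad2, Slc32a1 and Dlx2 to between 0.12 and 0.15, none of them called, while Pvalb stood at 1.00.

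**Figure D3:**
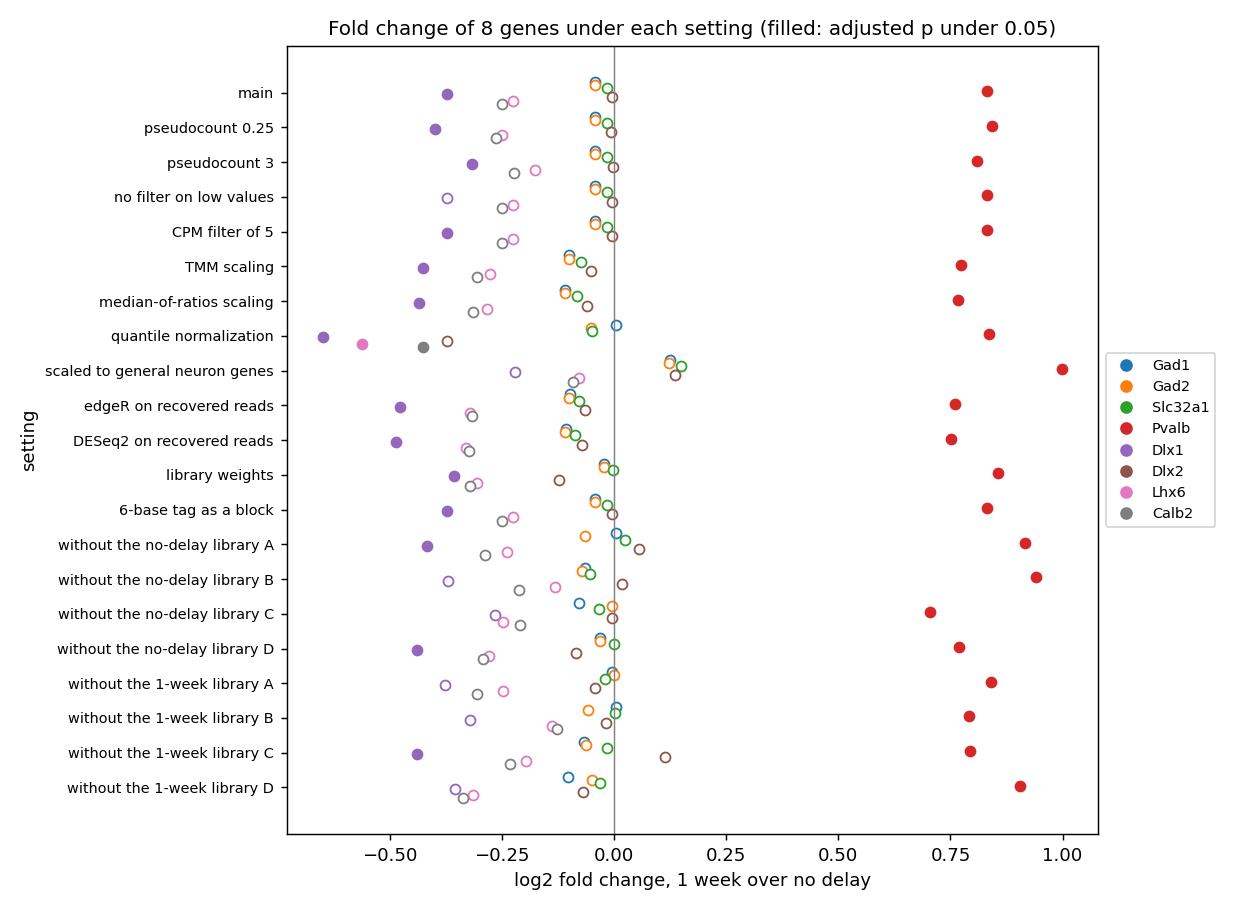
Log2 fold change, 1 week over no delay (horizontal axis), of the 8 genes (colours) under the main analysis and 20 alternatives (rows); filled points had an adjusted p under 0.05. Pvalb is filled in every row, Dlx1 is open in 7 of the 20 alternatives, and Gad1, Gad2, Slc32a1 and Dlx2 are open in every row.

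Other genes of fast-spiking cells, the class that Pvalb marks, moved in both directions. Of 10 such genes, 2 were higher and 3 lower and the other 5 were not called, with a median log2 fold change of 0.07. Quantile normalization gave 1 higher and 4 lower, and scaling to the general neuron genes gave 3 higher and 1 lower, which was Tac1. Without no-delay library B or D or 1-week library A, 1 was higher. Cox6a2, a subunit of cytochrome c oxidase enriched in parvalbumin cells of the brain, rose from 23.4 ± 3.66 to 33.0 ± 4.35 CPM (SD, n = 4, log2 fold change 0.48, adjusted p = 0.00824). Ppargc1a, the metabolic coactivator that is known to promote Pvalb expression in interneurons, rose from 8.45 ± 2.03 to 12.0 ± 0.881 CPM (SD, n = 4, 0.48, adjusted p = 0.0230), a call lost in 4 of 20 alternatives. These were quantile normalization (adjusted p = 0.274) and leaving out no-delay library B or D (0.0663 and 0.0609) or 1-week library A (0.0627). Kcnc1 and Kcnc2, the Kv3 potassium channels that let these cells fire fast, were lower, at 82.2 against 112 CPM and 65.1 against 84.3 CPM (log2 fold changes -0.46 and -0.37), and neither was called with scaling to the general neuron genes. Tac1, the precursor of substance P made by some parvalbumin cells and by striatal neurons, fell by 1.18 on the log2 scale, from 11.2 ± 2.26 to 4.61 ± 2.21 CPM (SD, n = 4, adjusted p = 0.00167). Syt2, a synaptotagmin of basket cell terminals, had 6.03 and 6.47 CPM and Acan, aggrecan of perineuronal nets, had 1.38 and 2.06 CPM, and neither was called.

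Fast skeletal muscle also makes parvalbumin and Cox6a2. The summed level of 5 fast muscle genes, chosen after the values were seen, was 0.1 to 0.54 CPM at no delay and 0.41 to 2.21 CPM at 1 week. Tnni2, a fast troponin, gave 0 to 0.27 CPM at no delay and 0.41 to 1.64 CPM at 1 week, without overlap. Its value of 1.64 CPM in 1-week library C was the highest of the 5 genes. Atp2a1, the muscle calcium pump, was at 0 in all 1-week libraries, which allows up to 0.362 CPM in the shallowest of them. The part of muscle in the values of Pvalb and Cox6a2 was not tested.

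Markers of other interneuron subclasses were mostly not called. Of 15, 1 was higher, 2 were lower and 12 were not called, with a median log2 fold change of -0.14. The 2 lower were Sst and Tac1, and Tac1 is also counted among the fast-spiking genes above. Sst, the peptide of the somatostatin class that also expresses Lhx6, gave 351.6, 366.04, 411.75 and 327.6 CPM at no delay and 338.9, 247.3, 286.9 and 229.3 CPM at 1 week. Its groups overlapped through 1-week library A alone. Sst fell by 0.41 on the log2 scale (adjusted p = 0.0124), and with scaling to the general neuron genes it was not called (adjusted p = 0.0888). Nos1, neuronal nitric oxide synthase, rose from 12.7 ± 0.767 to 18.1 ± 3.44 CPM (SD, n = 4, 0.45, adjusted p = 0.0137), and was not called with quantile normalization (adjusted p = 0.128). Vip gave 58.9 and 54.2 CPM, Npy 292 and 242 CPM and Cck 610 and 549 CPM at no delay and 1 week, and none of these 3 peptides was called. With TMM, median-of-ratios or quantile scaling, 5 of the 15 were lower, and with scaling to general neuron genes 1 was. EdgeR gave 5 lower and DESeq2 6, leaving out 1-week library D gave 4, and quantile normalization gave 0 higher.

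Of 13 other interneuron transcription factors, 12 were tested, 5 were higher, 1 was lower and 6 were not called, with a median of -0.01. Over the 20 alternatives 3 to 5 were higher and 0 to 3 lower. Quantile normalization gave 3 in each direction with a median of -0.18, and DESeq2 gave 3 higher and 2 lower. Without no-delay library B or D, or 1-week library A or B, 3 were higher, and without either of those 1-week libraries 0 were lower. Sox6, which acts downstream of Lhx6 and is also made by oligodendrocyte precursors, rose from 11.4 ± 1.78 to 19.6 ± 2.26 CPM (SD, n = 4, 0.73, adjusted p = 5.6e-04). Maf, Prox1 and Nr2f2 were among the other higher genes. Beside these, the summed microglia markers were 206 to 229 CPM at no delay and 817 to 1199 CPM at 1 week, and the summed oligodendrocyte markers were 1323 to 2980 CPM and 2115 to 3667 CPM. The part of these cells in the rise of the factors was not tested. Npas1, a repressor found in interneurons, fell by 0.47 on the log2 scale, from 7.88 ± 0.997 to 5.44 ± 0.887 CPM (SD, n = 4, adjusted p = 0.0173). Its call was lost without 1-week library A or B (adjusted p = 0.0506 and 0.0544) and with scaling to general neuron genes (0.0740). Dlx5 had 3.47 and 3.45 CPM and Dlx6 had 6.64 and 5.90 CPM, and neither was called.

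**Figure D4:**
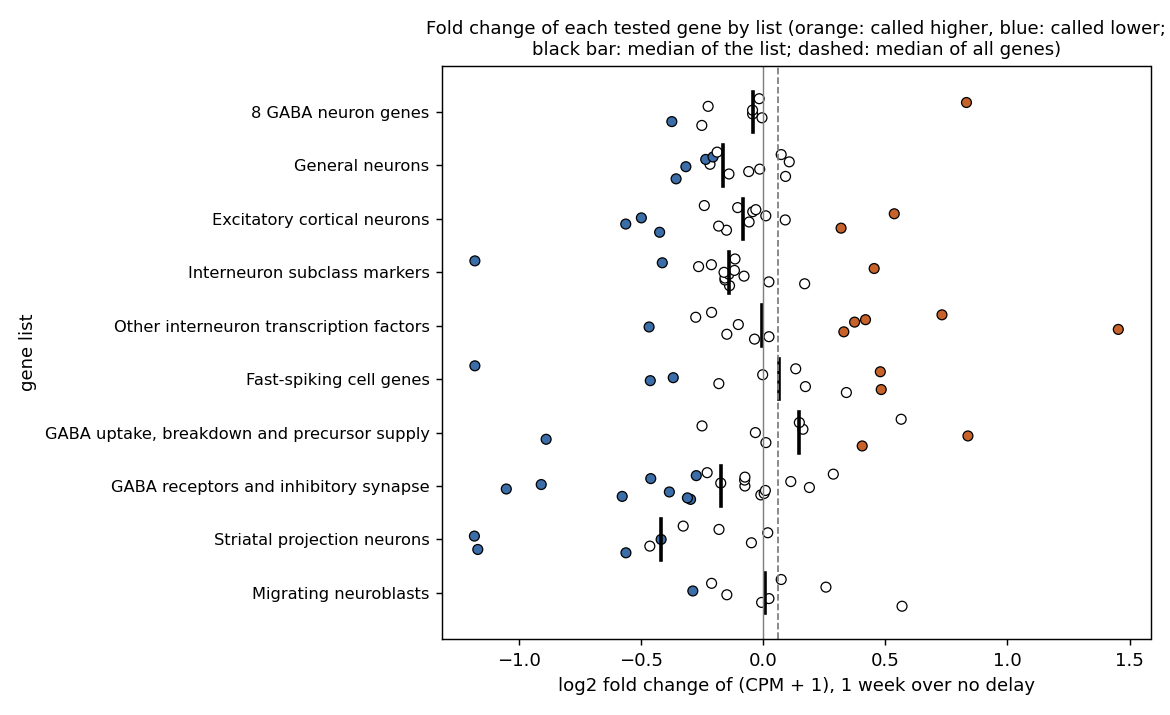
Log2 fold change of (CPM + 1), 1 week over no delay (horizontal axis), of each tested gene in the 8-gene set and 9 gene lists (rows); orange points were called higher, blue points lower, black bars are list medians and the dashed line is the median of all genes, 0.06. The 8 genes have 1 orange and 1 blue point around a median of -0.04, while the GABA receptor list has 8 blue points and no orange one. The general neuron list likewise has 4 blue points and no orange one.

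Downstream of GABA release, genes of receptors and the inhibitory postsynapse that were called were lower, as were those of the general neuron list. Of 19 genes, 8 were lower, 0 were higher and 11 were not called, with a median of -0.17. Over all genes tested, 13.4% were called lower. The 12 general neuron genes gave 4 lower and 0 higher, with a median of -0.16. With scaling to the general neuron genes the split of the 19 was 5 lower and 3 higher, with a median of -0.007. With the 6-base tag as a block it was 9 lower and 2 higher, and without no-delay library B or 1-week library A or D 1 was higher. Gabra5, the alpha5 subunit of extrasynaptic GABA-A receptors, gave 66.5 to 76.4 CPM at no delay and 31.3 to 35.2 CPM at 1 week, and fell by 1.05 on the log2 scale (adjusted p = 4.6e-07). Gabbr2, a subunit of the metabotropic GABA-B receptor, had 127 ± 9.995 and 84.8 ± 10.7 CPM (SD, n = 4, -0.58, adjusted p = 3.6e-04). Gabra3, Gabrg3, Gabbr1 and Nlgn2, the adhesion protein of inhibitory synapses, were among the other lower genes. Slc12a5, the chloride exporter KCC2, gave 516 and 441 CPM and missed the threshold (adjusted p = 0.0506).

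Calls among genes of the precursor and breakdown steps of GABA were close to the background. Of 10 genes 9 were tested, of which 2 were higher, 1 was lower and 6 were not called, with a median of 0.15. Over all genes tested, 23.4% were called higher and 13.4% lower. Without 1-week library D, 2 were higher and 2 lower, with a median of -0.01. Leaving out 1-week library A or C gave 3 higher and 1 lower, as did scaling to the general neuron genes (median 0.31). Glul, the glutamine synthetase of astrocytes, rose from 188 ± 19.6 to 337 ± 17.7 CPM (SD, n = 4, 0.84, adjusted p = 5.5e-06). Abat, GABA transaminase, which degrades GABA in neurons and astrocytes, rose from 207 ± 25.8 to 273 ± 6.05 CPM (SD, n = 4, 0.41, adjusted p = 0.00264). The summed astrocyte markers were 2160 to 2467 CPM at no delay and 4386 to 5009 CPM at 1 week, and their part in the rise of Glul and Abat was not tested. The GABA transporter Slc6a11 (GAT3, 59.1 and 67.8 CPM) was not called, nor was Aldh5a1, which acts after Abat (54.0 and 54.3 CPM).

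Other neuron classes that a 1.0 mm margin can hold were examined beside the members. Of 14 excitatory neuron genes, 3 were lower, 2 higher and 9 not called, with a median of -0.08, and over the 20 alternatives 2 to 4 were lower and 1 or 2 higher. Fezf2 of deep-layer projection neurons had 36.0 and 24.1 CPM (-0.56), and Rorb of layer 4 had 75.0 and 109 CPM (0.54), both called. Of 12 general neuron genes, 4 were lower and 8 not called, with a median of -0.16. With libraries scaled to these genes 3 were higher and 0 lower. Such scaling makes their summed level equal in every library, so it cannot test them as a set. TMM, median-of-ratios, edgeR and DESeq2 each gave 7 lower, while leaving out no-delay library A or 1-week library B or D gave 2. Striatal projection neurons also make GABA through Gad1 and Gad2. Of 9 striatal genes tested, 4 were lower and 5 were not called, with a median of -0.42 and a summed level of 10 genes of 312 to 487 CPM at no delay and 298 to 388 CPM at 1 week. Leaving out no-delay library A or C gave 1 lower of 7 tested, with medians of -0.27 and -0.22, leaving out 1-week library C or D gave 1 of 9 and leaving out 1-week library B gave 2 of 9. Quantile normalization gave 6 lower, and scaling to the general neuron genes or a filter of 5 CPM gave 2. Penk, the enkephalin precursor, had 42.7 ± 8.99 and 18.6 ± 5.88 CPM (SD, n = 4, -1.18, adjusted p = 5.8e-04), while Ppp1r1b (DARPP-32) had 140 CPM in both groups. Of 8 migrating neuroblast genes tested, which include Dlx5, Dlx6 and Sp9 from the factor list, 1 was lower and 7 were not called. That scaling gave 3 higher and 0 lower. The lower gene, Meis2, also of striatal neurons, had 86.9 and 71.5 CPM (adjusted p = 0.0462), and its call was lost in 11 of 20 alternatives. The part of striatal tissue or neuroblasts in the members' values was not tested.

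The genes most like the GABA-making genes across the 8 libraries were Abhd16a (Pearson r = 0.967), Stk35 (0.953), Mll3 (0.952), Zfp280b (0.946) and Htr6 (0.936). The measure was the correlation over 8 libraries with the mean of the standardized Gad1, Gad2 and Slc32a1 values, among tested genes with a mean of at least 5 CPM. The points share their library and depth, the 5 are the top of all genes so screened, and none of them was called.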

How the data were processed

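Tissue around a motor cortex cavity was profiled by CAGE in 8 libraries. Per the labels' protocols, total RNA was column-purified and CAGE libraries were read as single ends on a NextSeq instrument. BWA 0.5.9 and mm9 are the aligner and build in the submitters' processing notes. The rule that assigned tags to genes is not given in the sources used here. For 17644 genes the deposited values are CPM, scaled by the authors. Since 100% of values are whole multiples of 1 read within 0.1 reads, depths were recovered (8278855 to 13998941 reads). Where 0 reads were seen, up to 3 are allowed by counting error alone, which equals 0.214 to 0.362 CPM.

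Column names give the group and a tag but no replicate number. Libraries of 1 group were counted separately, since over genes with at least 20 reads their chi-square was at least 8.36 times its degrees of freedom. The main test was limma-trend (limma 3.58.1, R 4.3.3) on log2(CPM + 1), 2-sided, for 14718 genes with at least 1 CPM in 4 or more libraries; 2926 genes were not tested. p-values were adjusted over all genes by Benjamini-Hochberg. The fold change on this scale understates changes of genes with few reads. The fits were tested on simulated data. The 20 alternatives were pseudocounts of 0.25 and 3, no filter, a filter of 5 CPM, 4 scalings, edgeR 4.0.16 and DESeq2 1.42.0 on recovered reads, library weights, the tag as a block and leaving out each library. Named genes were the 8 members, Slc17a7, in each list up to 3 called genes of largest fold change in size, or the most abundant gene where none was called, and the 5 genes most like the GABA-making genes. Some genes that this rule names are not reported here. Further genes named with values, beyond this rule, were chosen after their values were seen. Of 135 list entries 132 matched, 3 of them by synonym. The members and lists were chosen with earlier results of these data known. Promoter sequences are from RefSeq (GRCm38.p6), and no mm9 coordinate is given.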

Additional observations from a re-analysis of the deposited data

Results flagged for a closer look

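In groups of 4 libraries, a library was singled out where its gap to the nearest of the others divided by the group's range exceeded Dixon's 95% critical value. This held in 4 of 138 groups tested, and chance gives about 1 in 20. For C1qa, a complement gene of microglia, 1-week library B had 547.86 CPM, against 336 to 371 CPM in the other three. The ratio of Dlx1as to Dlx1 tags was 4.545 in no-delay library D, against 3.17 to 3.39 in the others. Dlx2 per 100 Slc17a7 tags was 0.726 in no-delay library D, against 0.907 to 0.942 in the others. Lhx6 per 1000 general neuron tags was 1.026 in no-delay library B, against 0.766 to 0.803 in the others.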

How the results depend on the processing

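Pvalb was called higher in all 20 alternatives (log2 fold change from 0.70 to 1.00). Leaving out each library in turn gave -0.10 to 0.0039 for Gad1, -0.054 to 0.025 for Slc32a1, -0.44 to -0.27 for Dlx1, -0.084 to 0.11 for Dlx2 and 0 to 1 members called lower. Gad1, Gad2, Slc32a1 and Dlx2 were called in none of the 20 alternatives. With no filter Dlx1 (-0.37) lost its call, leaving 0 members called lower. Quantile normalization gave 0.0042 for Gad1, -0.56 for Lhx6 and -0.43 for Calb2, with 3 members and 3211 genes called lower, against 1 and 1971. Scaling to the general neuron genes gave 0.12 for Gad1, 0.12 for Gad2, 0.15 for Slc32a1, 0.14 for Dlx2 and -0.22 for Dlx1, with 0 members called lower and 6325 genes higher and 747 lower. The cause of these differences was not tested. Of all called genes, 63.6% were higher as deposited, 53.1% with TMM, 51.4% with median-of-ratios, 43.4% with quantile and 89.4% with neuron scaling, where the median of all genes moved from 0.06 to 0.217. No ratio of members moved by more than 1 SD on leaving out a library. No paired analysis was possible because the columns carry no replicate number. A fit with the 6-base tag as a block called the same numbers of members, 1 higher and 1 lower. Counting error weighed most on Dlx2 and Lhx6, with 38 to 70 and 53 to 98 reads per library.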

Other observations

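Some values were not given above, among them those of Slc6a13 and Cplx1, which were counted in their lists. The share of tags from mitochondrial genes was 2.995 to 5.38% at no delay and 2.40 to 3.05% at 1 week. Gm14205, the gene antisense to Slc32a1, had 0.93 and 0.80 CPM at no delay and 1 week and was not tested, so few tags were counted beside the transporter gene. Slc6a13 (GAT2), a GABA transporter of the meninges, had 6.51 and 11.2 CPM and was not called (adjusted p = 0.212). Cplx1, a complexin, had 380 and 424 CPM and was not called (adjusted p = 0.260).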
